A study of Mus musculus with 21 samples.

Results

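The genes of fatty acid and triglyceride synthesis, 32 in number, were followed in livers of 21 mice, some given titanium dioxide nanoparticles in the lung and the others vehicle alone. The members are a list of gene names. Each was found through the RefSeq accession of its probes, and where a gene had several probes the one with the brightest mean liver signal stood for it. All 32 were on the array and passed the filter on dim probes, among 11255 named genes and 17640 features that were tested. Female C57BL/6 mice, bought at 5 to 7 weeks of age and housed for 1 to 3 weeks, were given 162 µg of nano-TiO2 by a single instillation into the trachea under anaesthesia. The control mice received only the dispersant, saline to which cell-free lavage fluid from untreated lungs had been added. All mice were fed without restriction. Livers came from 6 TiO2 mice and 5 control mice at day 1 and from 6 TiO2 mice and 4 control mice at day 28, with 1 mouse on each array. The liver RNA carried the red dye, and a universal mouse reference RNA, the same on every array, carried the green dye. A level is therefore the log2 ratio of liver over reference for a probe. It compares animals and groups, and does not rank the amounts of different genes. The series asks whether particles deposited in the lung alter gene expression in the liver.

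Lipogenesis turns surplus carbohydrate into fat in the cytosol of the hepatocyte. Citrate leaves the mitochondrion and is split to acetyl-CoA, which is carboxylated to malonyl-CoA and built into palmitate. Palmitate is then elongated, desaturated and esterified to glycerol, and the triglyceride is stored in droplets or secreted as very low density lipoprotein. The transcription factors SREBP1, under insulin, and ChREBP, under glucose metabolites, raise most of these enzymes after a meal. Fasting lowers them.

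All 9 hepatocyte markers exceeded background in each of the 21 livers, by the scanner software's own test, and their median log2 ratio lay between 5.34 and 6.74. Median differences of the marker lists are given here once. Of the hepatocyte markers 8 of 9 had lower means in TiO2 livers than in control livers at day 1 (median -0.21) and 5 of 9 at day 28 (median -0.02). The endothelial markers were lower in 5 of 5 at day 1 (median -0.08) and higher in 5 of 5 at day 28 (median 0.21), and the Kupffer cell markers were higher in 5 of 6 at day 1 (median 0.10) and in 6 of 6 at day 28 (median 0.11). At day 1 the median Kupffer level of an array ran from 1.99 to 4.62 in TiO2 livers and from 2.13 to 3.39 in control livers. These ranges overlapped. None was called, and their part in the members' values was not tested. The extraction protocol in the labels speaks of lung tissue although the source is liver. Of 6 lung markers 0 to 4 were above background on an array, among them Scgb1a1, a club cell secretory protein, on 17 of 21 arrays, Aqp5 on 9, Sftpa1 on 4, the surfactant genes Sftpb and Sftpc on 2 each, and Ager, of alveolar cells, on 0. Adipose tissue also makes most of the members. Of 7 adipocyte markers 1 to 4 were above background, with Adipoq and Cfd on 0 arrays and Fabp4, a lipid chaperone also known from macrophages and endothelium, on 21. Fabp4 had the lower mean in TiO2 livers at day 1 (-0.40 ± 0.15, unadjusted p = 0.0164), and the difference at day 28 was 0.09. Its mean was also lower in control livers of day 28 than in those of day 1 (-0.36). That difference and the change of the TiO2 difference between the days (0.49) had an unadjusted p under 0.05 in the same fit, without a call. Kupffer cell markers (6 of 6) and sinusoidal endothelial markers (4 or 5 of 5) were above background on each array. The arrays were scanned on 3 days, each with animals of all 4 groups, and the liver probes above background numbered 15225 to 16902 per array for the first scan day, 20883 to 26618 for the second and 12978 to 16758 for the third. Scan day was therefore set as a block in a second fit, and its values are given where they matter. On scan day 1 each control group had a single mouse, and on scan day 3 the day 28 controls had a single mouse. Differences within those scan days rest on that mouse and are not replicated. In a bulk liver sample, fewer cells of a type and less RNA per cell cannot be told apart.

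Most members were higher in liver than in the reference. The ratio was above 0 on all arrays for 22 members, below 0 on all arrays for 1, and on both sides of 0 for 9. Liver RNA averaged 53.7-fold the reference for Elovl2, which elongates polyunsaturated fatty acids, 38.5-fold for Scd1, the Δ9 desaturase that makes oleate, and 37.2-fold for Dgat2, which adds the last acyl chain of triglyceride. Among the regulators, the fold was 30.7 for Mlxipl, which encodes ChREBP, 21.7 for Thrsp, a thyroid hormone responsive protein of lipogenic tissues, and 3.00 for Srebf1, which encodes SREBP1. Acss2, which makes acetyl-CoA from acetate, averaged 16.0-fold and Fads2, the Δ6 desaturase, 10.5-fold. The one member below the reference everywhere was Scd2, a Δ9 desaturase prominent in brain, at a mean log2 ratio of -5.03. Whether the Scd1 and Scd2 probes cross-react was not tested. The liver signal was well above background on all 21 arrays for 24 members. The other 8 were measured near background on some: Pnpla3 on 9 of 21, Acaca and Mogat1 on 11, Acacb on 14, Gpam on 16, and Elovl3, Acsl3 and Lpin2 on 20. No group had any of these below background in every animal.

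One day after instillation no member differed between TiO2 and control livers at an adjusted p under 0.05. In limma's fit over 17640 features 0% were called, so this holds for the whole array. At an unadjusted p under 0.05 there were 2 members of 32, against 1.73% of all features: Elovl1, which elongates saturated very long chains, was higher in TiO2 livers and Mogat1, a monoacylglycerol acyltransferase, lower. With scan day as a block the counts were 0 called (0% of features) and again 2 members at an unadjusted p under 0.05 (4.08% of features). Differences ran from -0.45 for Elovl6 to 0.73 for Lpin1, with 15 members higher and 17 lower, and their median was -0.02, against -0.01 over all features. The groups overlapped for all 32 members, and 0.108% of features had groups that did not overlap. The smallest adjusted p of a member was 0.9998.

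For the regulators no difference beyond the spread between animals was found at day 1. Srebf1 had log2 ratios of 1.11 to 2.16 with a median of 1.78 in TiO2 livers, against 1.79, 1.30, 1.99, 1.84 and 1.40 in control livers. Mlxipl had 4.31 to 5.51 with a median of 5.06 in TiO2 livers, against 4.23, 4.73, 4.91, 5.50 and 5.31 in control livers, and Thrsp had 4.03 to 4.80 with a median of 4.62 in TiO2 livers, against 3.27, 4.16, 4.79, 4.91 and 4.62 in control livers. The differences, TiO2 minus control, were -0.01 ± 0.19 (SE) for Srebf1, 0.05 ± 0.23 for Mlxipl and 0.18 ± 0.28 for Thrsp, each smaller than its standard error. Under the scan-day block Mlxipl differed by 0.13 ± 0.13 and Thrsp by 0.29 ± 0.15 (unadjusted p = 0.0597), Thrsp beyond its standard error but not called. The 95% interval of the Thrsp difference reached 0.75 on the log2 scale, so a higher level up to that size lay within the error. The lowest Thrsp value of all was in a day 1 control, 3.27.

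The groups overlapped for every enzyme that supplies carbon or builds the chain. Acly, the ATP citrate lyase, had 1.34 to 2.70 with a median of 1.73 in TiO2 livers, against 0.62, 1.87, 2.01, 2.72 and 1.44 in control livers, and its difference was 0.12 ± 0.29. The lowest and the highest of these 11 values were both in control livers. Me1, the malic enzyme that supplies NADPH, had 0.03 to 1.09 with a median of 0.53 in TiO2 livers, against 0.67, 0.78, 0.65, 1.82 and 0.28 in control livers. Me1 was lower in TiO2 livers by its mean, -0.31 ± 0.21 (unadjusted p = 0.15), and 1 of 6 TiO2 livers lay above the control mean. Within the 3 scan days the Me1 difference was -0.38, -0.19 and -0.29. Acaca, the acetyl-CoA carboxylase of lipogenesis, had -0.19 to 0.49 with a median of 0.25 in TiO2 livers, against 0.18, 0.10, 0.21, 0.13 and 0.53 in control livers, and a difference of -0.07 ± 0.12. Acacb, the carboxylase at the mitochondrial surface, had 0.11 to 0.52 with a median of 0.28 in TiO2 livers, against 0.06, 0.39, 0.30, 0.46 and 0.23 in control livers. The Acacb difference was 0.02 ± 0.12, and most values of both carboxylases lay near the reference level. Fasn, which makes palmitate, had 1.37 to 2.49 with a median of 2.14 in TiO2 livers, against 2.86, 1.42, 1.80, 3.10 and 1.70 in control livers. The Fasn difference was -0.18 ± 0.33, with a 95% interval of -0.87 to 0.51, and the 2 highest values were both in controls. Acss2 at day 1 had 3.74 to 4.84 with a median of 4.02 in TiO2 livers, against 3.44, 3.81, 3.92, 4.74 and 4.13 in control livers, with a difference of 0.13 ± 0.21.

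Among elongases and desaturases, Elovl1 gave the smallest p of the day 1 comparison without scan day as a block (with it Mogat1 did, with unadjusted p = 0.0261 against 0.0299). Its log2 ratios were -0.03 to 0.71 with a median of 0.15 in TiO2 livers, against -0.10, -0.09, 0.21, -0.07 and -0.06 in control livers. The TiO2 livers held the 3 highest values, and the other 3 lay within the range of the controls. The difference was 0.28 ± 0.12 (unadjusted p = 0.0347), or 0.25 ± 0.11 under the block, and within scan days 1, 2 and 3 it was 0.74, -0.03 and 0.16. The 2 highest TiO2 values, 0.58 and 0.71, were both of scan day 1. Elovl6, which extends palmitate to stearate, had 0.52 to 2.03 with a median of 1.66 in TiO2 livers, against 1.21, 1.31, 2.00, 2.89 and 1.79 in control livers. Its difference of -0.45 ± 0.39 shrank to -0.29 ± 0.22 with scan day as a block. Scd1 had 4.82 to 5.73 with a median of 5.28 in TiO2 livers, against 6.14, 4.94, 4.60, 6.19 and 5.26 in control livers, and a difference of -0.14 ± 0.31. The desaturases Fads1, Fads2 and Scd2 differed by 0.08 ± 0.15, -0.13 ± 0.20 and -0.10 ± 0.29, and the elongases Elovl2, Elovl3 and Elovl5 by -0.12 ± 0.19, 0.19 ± 0.32 and -0.14 ± 0.29, all smaller than their standard errors. Scd2 differed by -0.20 ± 0.13 with scan day as a block.

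Glycerolipid assembly held both the largest difference and the second small p of day 1. Mogat1 had -0.25 to 0.36 with a median of 0.13 in TiO2 livers, against 0.49, 0.30, 0.44, 0.19 and 0.47 in control livers. Every TiO2 liver lay below the control mean, and the difference was -0.27 ± 0.12 (unadjusted p = 0.043), or -0.29, -0.22 and -0.35 within the 3 scan days. Mogat1 was above background in 3 of 6 TiO2 livers and 4 of 5 control livers, and its 2 other probes, which failed the filter, differed by -0.10 and -0.03. Lpin1, a phosphatidate phosphatase and transcriptional coactivator, had 1.53 to 3.69 with a median of 2.71 in TiO2 livers, against 1.18, 2.54, 1.07, 3.67 and 1.50 in control livers. The difference of 0.73 ± 0.60 was the largest among the members, and its 95% interval, -0.52 to 1.98, included no change. Dgat1, which shares the last step with Dgat2, had -0.22 to 0.03 with a median of -0.13 in TiO2 livers, against -0.58, -0.29, -0.03, -0.18 and -0.28 in control livers. All 6 TiO2 livers exceeded the control mean of Dgat1, by a difference of 0.16 ± 0.12, most of it on scan day 1 (0.60, 0.03 and 0.01 within the scan days). Dgat2 had 4.99 to 5.51 with a median of 5.29 in TiO2 livers, against 5.52, 4.77, 5.12, 5.47 and 5.29 in control livers, a difference of 0.02 ± 0.13. Gpam, the acyltransferase that starts the pathway, had 0.32 to 0.74 with a median of 0.60 in TiO2 livers, against 0.57, 0.31, 0.58, 0.98 and 0.13 in control livers, a difference of 0.07 ± 0.16. Lpin2 had 0.28 to 1.06 with a median of 0.59 in TiO2 livers, against -0.11, 0.71, 0.27, 0.90 and 0.56 in control livers, a difference of 0.21 ± 0.22, and Agpat2, the next acyltransferase, had 2.19 to 3.04 with a median of 2.57 in TiO2 livers, against 2.57, 1.78, 2.49, 2.57 and 2.56 in control livers, a difference of 0.17 ± 0.20. For these 4 genes the groups overlapped and the interval included 0. The other Agpat2 probe differed by -0.16 at day 1, opposite in sign to the chosen one.

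The 3 genes of export and lipolysis had lower means in TiO2 livers, each with a 95% interval that included 0. Mttp, which loads triglyceride onto apolipoprotein B, differed by -0.29 ± 0.27, and Pnpla2, the adipose triglyceride lipase, by -0.08 ± 0.20, or -0.14 ± 0.14 with scan day as a block. Pnpla3, a lipase relative that SREBP1 is known to raise, had -0.23 to 0.49 with a median of 0.01 in TiO2 livers, against 0.25, 0.26, 0.13, 0.68 and 0.20 in control livers, a difference of -0.21 ± 0.21. The synthetases Acsl3 and Acsl5, which activate fatty acids, differed by 0.03 ± 0.23 and -0.03 ± 0.15, the citrate carrier Slc25a1 by -0.10 ± 0.14, and Agpat3 by -0.20 ± 0.39.

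**Figure D1:**
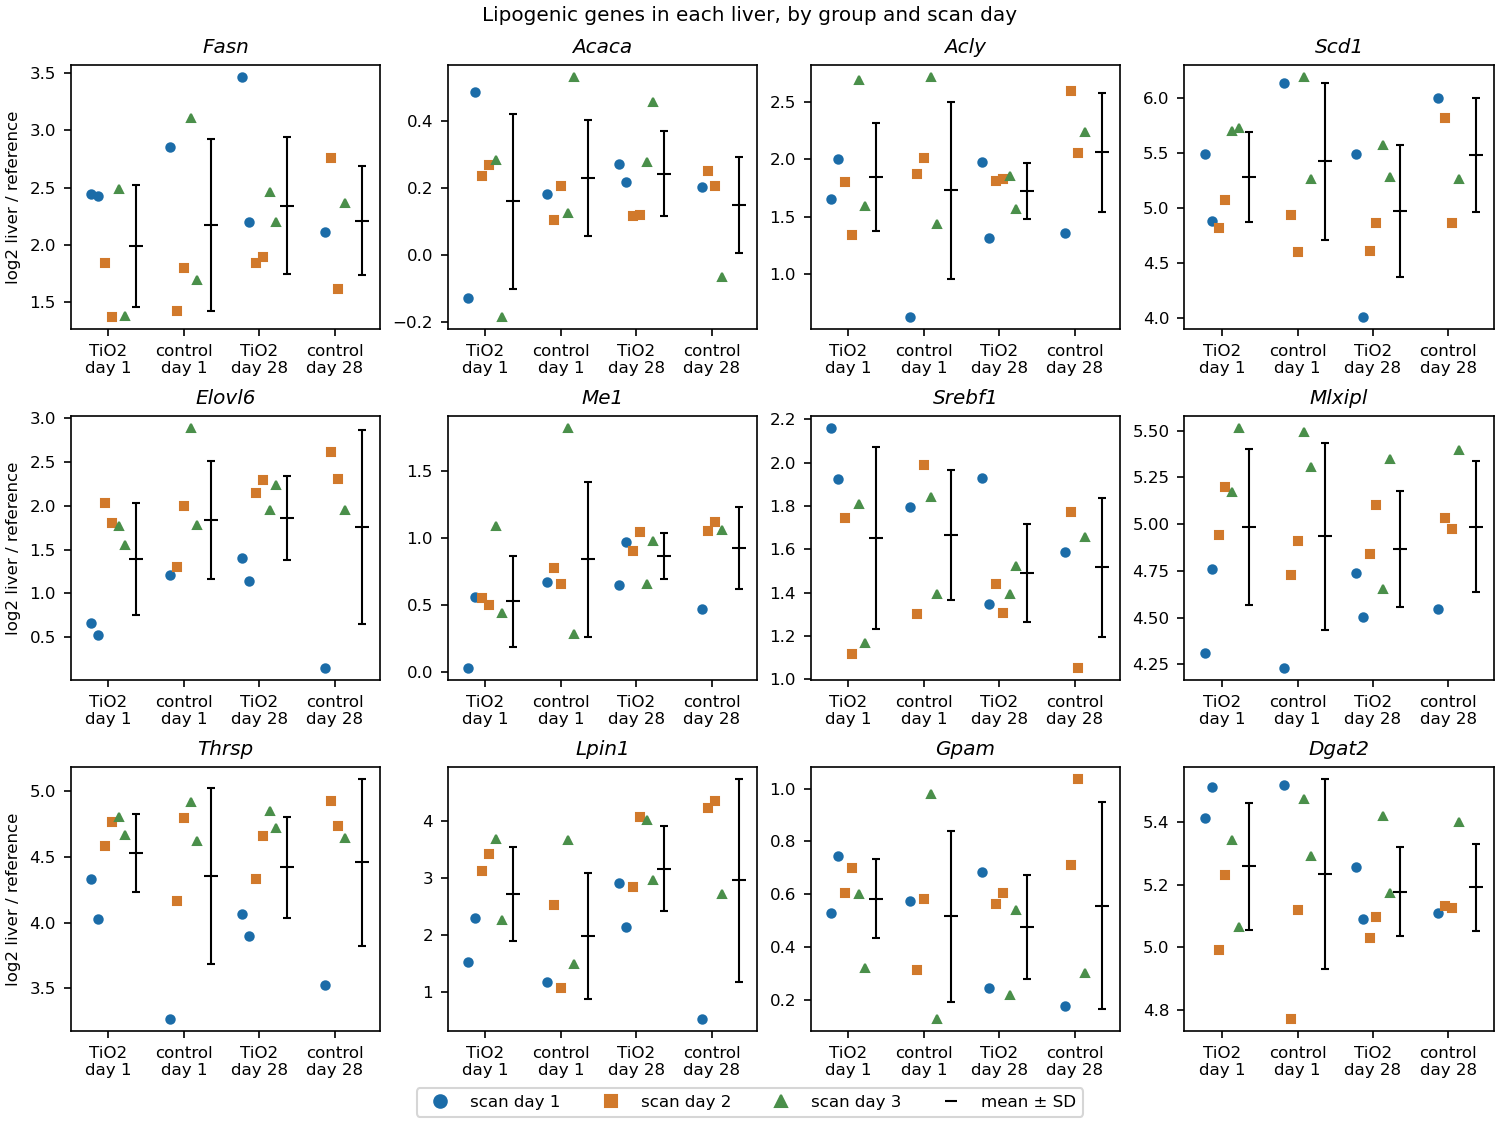
Log2 ratio of liver over reference (vertical axis, its range set for each gene) for 12 members in every liver, by group from left to right; each point is 1 animal, its shape and colour give the scan day, and the bar beside each group is the mean ± SD. The groups overlap in every panel, the Lpin1 values span 0.54 to 4.35, and the animals of scan day 1 lie low for Elovl6, Thrsp and Mlxipl.

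At day 28 the count of members called was again 0, with 0% of all features called. At an unadjusted p under 0.05 there were 0 members, against 0.935% of features. With scan day as a block it was 0 called (0%) and 2 members at an unadjusted p under 0.05 (3.08% of features), Acss2 and Scd1, both lower in TiO2 livers. Differences ran from -0.51 for Scd1 to 0.37 for Agpat2, with 14 members higher and 18 lower and a median of -0.02, against 0.00 over all features. No member had groups that did not overlap, and 0.281% of features did. The smallest adjusted p of a member was 0.99997.

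Acss2 gave the smallest p at day 28. It had 3.28 to 4.09 with a median of 3.81 in TiO2 livers, against 4.06, 4.40, 3.84 and 4.37 in control livers. All 6 TiO2 livers lay below the control mean, and the difference was -0.42 ± 0.22 (unadjusted p = 0.0782), or -0.45 ± 0.16 with scan day as a block (unadjusted p = 0.0114). Within the scan days it was -0.51, -0.36 and -0.43, the first and the last against a single control. A second, dimmer probe of Acss2 differed by -0.23. Acly had 1.31 to 1.98 with a median of 1.82 in TiO2 livers, against 1.35, 2.60, 2.06 and 2.24 in control livers, and here too every TiO2 liver was below the control mean, by -0.34 ± 0.31. Me1 and Slc25a1 differed by -0.06 ± 0.22 and 0.00 ± 0.14, both smaller than their standard errors. Me1 had 0.65 to 1.05 with a median of 0.94 in TiO2 livers, against 0.47, 1.06, 1.12 and 1.06 in control livers, which put the lowest value in a control.

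Scd1 had 4.01 to 5.58 with a median of 5.07 in TiO2 livers, against 6.00, 5.81, 4.87 and 5.26 in control livers. Its difference was -0.51 ± 0.33 (unadjusted p = 0.14), or -0.61 ± 0.28 with scan day as a block (unadjusted p = 0.0423). It did not run the same way throughout, with -1.25, -0.60 and 0.17 within scan days 1, 2 and 3. Scan days 1 and 3 each had a single control here. The lowest Scd1 value of all 21 livers, 4.01, was in this TiO2 group. Fads1 and Fads2 differed by -0.13 ± 0.16 and -0.18 ± 0.22, and Scd2 by 0.01 ± 0.31. Elovl6 had 1.14 to 2.30 with a median of 2.05 in TiO2 livers, against 0.15, 2.62, 2.31 and 1.96 in control livers, where 1 control, at 0.15, was the lowest of all animals, and the difference was 0.11 ± 0.42. Elovl1, which led the day 1 comparison, had -0.29 to 0.00 with a median of -0.20 in TiO2 livers, against 0.00, -0.27, -0.21 and -0.04 in control livers, a difference of -0.03 ± 0.13. Elovl3, an elongase of very long chains, had 0.34 to 2.39 with a median of 1.58 in TiO2 livers, against 2.00, 1.31, 1.71 and 0.36 in control livers. Elovl2, Elovl3 and Elovl5 differed by 0.04 ± 0.20, 0.03 ± 0.34 and -0.13 ± 0.30.

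For the regulators and the chain builders no difference beyond the spread was found at day 28 either. Srebf1 had 1.31 to 1.93 with a median of 1.42 in TiO2 livers, against 1.59, 1.77, 1.05 and 1.65 in control livers, Mlxipl had 4.50 to 5.35 with a median of 4.79 in TiO2 livers, against 4.54, 5.03, 4.97 and 5.40 in control livers, and Thrsp had 3.89 to 4.85 with a median of 4.50 in TiO2 livers, against 3.53, 4.93, 4.73 and 4.65 in control livers. Their differences were -0.03 ± 0.20, -0.12 ± 0.24 and -0.04 ± 0.29. Fasn had 1.84 to 3.46 with a median of 2.20 in TiO2 livers, against 2.11, 2.75, 1.61 and 2.37 in control livers. The highest Fasn value of all livers, 3.46, was a TiO2 animal, and the difference was 0.13 ± 0.35 with a 95% interval of -0.61 to 0.87. Acaca had 0.12 to 0.46 with a median of 0.25 in TiO2 livers, against 0.20, 0.25, 0.21 and -0.06 in control livers, a difference of 0.09 ± 0.13. Acacb had -0.13 to 0.46 with a median of 0.29 in TiO2 livers, against 0.12, 0.46, 0.36 and 0.62 in control livers, a difference of -0.16 ± 0.13.

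For glycerolipid assembly at day 28, Agpat2 had 2.03 to 2.80 with a median of 2.31 in TiO2 livers, against 2.58, 1.88, 1.95 and 1.45 in control livers. All 6 TiO2 livers exceeded the control mean and the difference was 0.37 ± 0.22 (unadjusted p = 0.101), but within scan days it was 0.04, 0.16 and 0.86. The only control of scan day 3 was the lowest of the group, at 1.45. The other Agpat2 probe differed by 0.29. Lpin1 had 2.15 to 4.08 with a median of 2.95 in TiO2 livers, against 0.54, 4.24, 4.35 and 2.73 in control livers, and Lpin2 had 0.42 to 1.05 with a median of 0.87 in TiO2 livers, against 0.14, 1.49, 1.29 and 0.79 in control livers. The Lpin1 controls held both the lowest and the 2 highest values of all livers, and the differences were 0.21 ± 0.64 for Lpin1 and -0.16 ± 0.23 for Lpin2. Dgat2 had 5.03 to 5.42 with a median of 5.14 in TiO2 livers, against 5.11, 5.13, 5.13 and 5.40 in control livers, a difference of -0.01 ± 0.14 with a 95% interval of -0.30 to 0.27. Gpam had 0.22 to 0.68 with a median of 0.55 in TiO2 livers, against 0.18, 0.71, 1.04 and 0.30 in control livers, a difference of -0.08 ± 0.17. Dgat1 differed by 0.01 ± 0.12 and Agpat3 by 0.07 ± 0.42, or 0.22 ± 0.19 with scan day as a block. Mogat1 had 0.05 to 0.27 with a median of 0.12 in TiO2 livers, against -0.04, 0.44, 0.35 and -0.23 in control livers, a difference of 0.01 ± 0.13.

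Acsl5 had 1.99 to 2.51 with a median of 2.20 in TiO2 livers, against 2.48, 2.65, 2.04 and 2.80 in control livers, and 1 of 6 TiO2 livers lay above the control mean. The difference was -0.26 ± 0.16 (unadjusted p = 0.114), and Acsl3 differed by 0.21 ± 0.24, or 0.28 ± 0.14 with scan day as a block (unadjusted p = 0.0544). Pnpla3 had -0.10 to 0.76 with a median of 0.11 in TiO2 livers, against -0.01, 1.46, 0.15 and 0.29 in control livers, so 1 control stood above all other livers, and the difference was -0.29 ± 0.22. Mttp had 1.04 to 2.20 with a median of 1.85 in TiO2 livers, against 1.05, 1.85, 2.15 and 1.02 in control livers, a difference of 0.23 ± 0.28, and Pnpla2 differed by 0.06 ± 0.21.

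**Figure D2:**
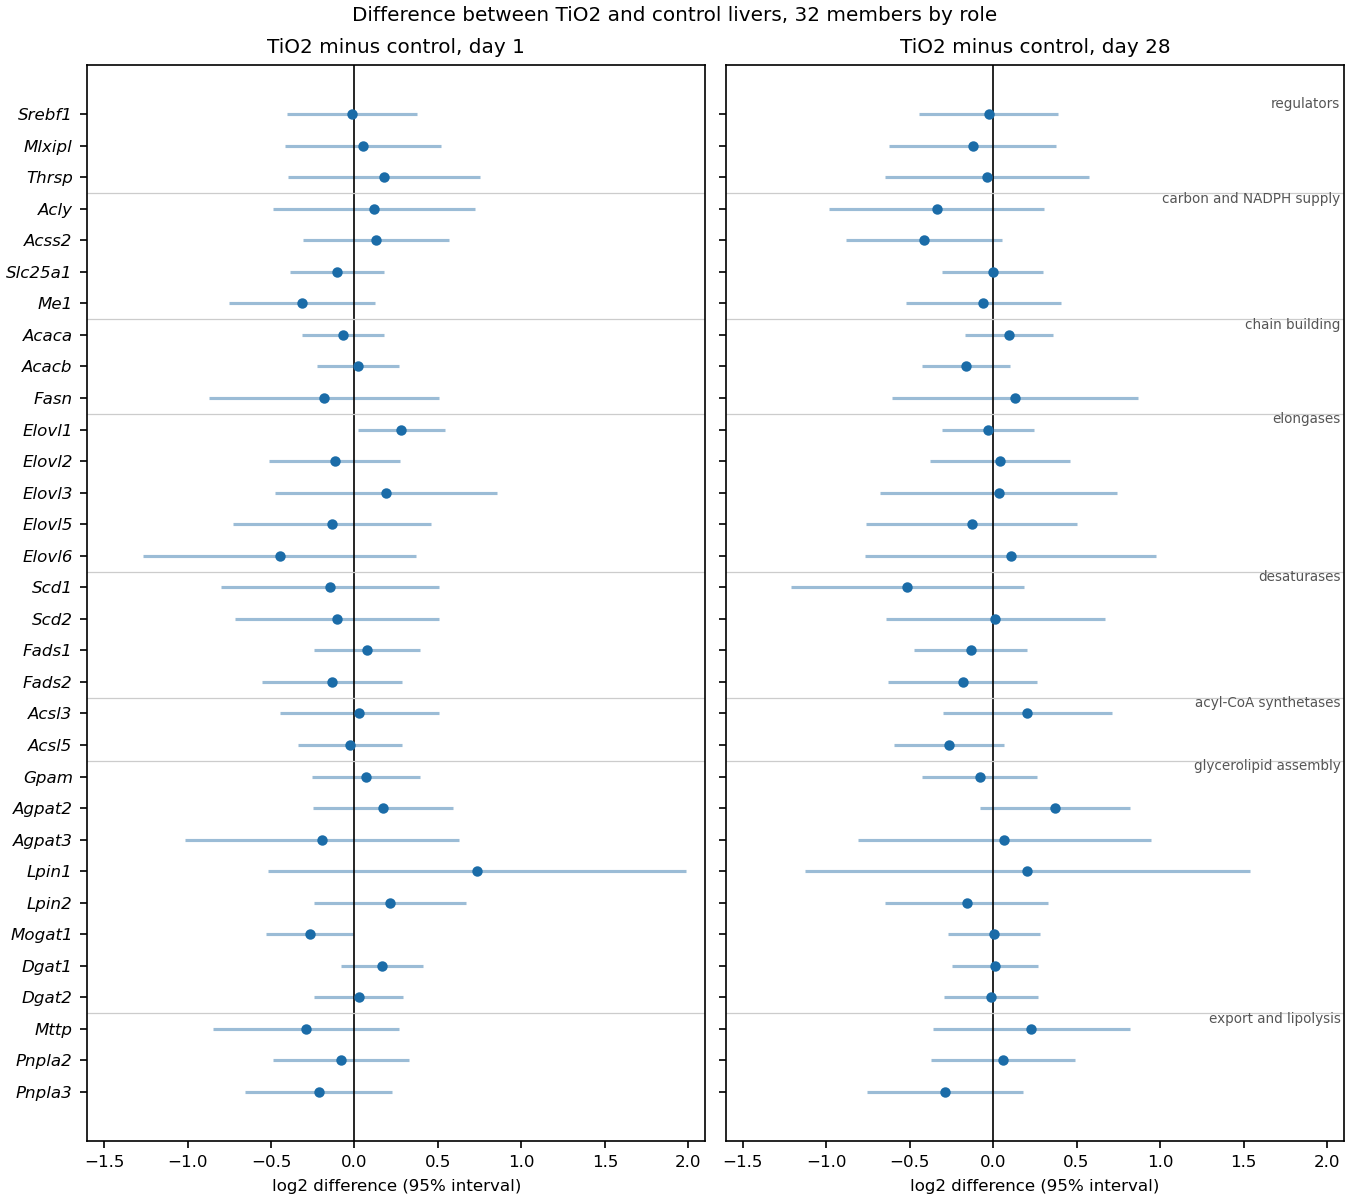
Difference in log2 ratio, TiO2 minus control (horizontal axis), with its 95% interval from limma, for the 32 members grouped by role, at day 1 (left) and day 28 (right). The intervals of Elovl1 and Mogat1 at day 1 leave 0 out before adjustment, and all other intervals include it.

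Whether the TiO2 difference changed between the days was tested as its own term, day 28 minus day 1. Of all features 0% were called, and 0 members had an unadjusted p under 0.05, against 0.76% of features. With scan day as a block 0 were called (0%) and 2 members had an unadjusted p under 0.05 (3.02% of features). One was Acss2, whose difference moved by -0.54 ± 0.31, or -0.62 ± 0.22 with the block (unadjusted p = 0.0104). The second, dimmer Acss2 probe moved by only -0.13 without the block. The other member was Mttp, which moved by 0.52 ± 0.39, or 0.56 ± 0.25 with the block (unadjusted p = 0.037). At day 1 Mttp had 0.93 to 2.25 with a median of 1.50 in TiO2 livers, against 1.34, 1.87, 2.21, 2.06 and 1.61 in control livers. Without the block the 5 smallest p values belonged to Acss2, Elovl1 (-0.31 ± 0.18), Mogat1 (0.27 ± 0.18), Mttp and Lpin2 (-0.37 ± 0.32). Elovl6 and Lpin1 moved by 0.55 ± 0.57 and -0.53 ± 0.88, each less than its standard error, and with the block by 0.50 ± 0.33 and -0.57 ± 0.66. The members' median was -0.04, against 0.00 over all features.

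Control livers of day 28 were also set against control livers of day 1, mice that differed in the days since the vehicle and in age. Members called were 0, as were features (0%), and 0 members had an unadjusted p under 0.05, against 3.03% of features. With scan day as a block 0 were called (0%), the smallest adjusted p of a member was 0.539, and 4 members had an unadjusted p under 0.05 (7.72% of features). These 4 were Agpat2 (-0.43 ± 0.16, unadjusted p = 0.0141) and Mogat1 (-0.28 ± 0.12, unadjusted p = 0.0383), lower at day 28, and Lpin2 (0.49 ± 0.20, unadjusted p = 0.0215) and Fads2 (0.25 ± 0.11, unadjusted p = 0.0343), higher at day 28. Without the block they differed by -0.43 ± 0.22, -0.25 ± 0.14, 0.46 ± 0.24 and 0.21 ± 0.22. Lpin1 had the largest difference, 0.97 ± 0.67, with -0.64, 2.49 and 0.15 within the scan days, where its sign was not the same. The -0.64 set a single mouse of day 28 against a single mouse of day 1, and the 0.15 rested on a single mouse of day 28. Elovl3 had 2.00, 1.31, 1.71 and 0.36 at day 28, against 0.54, 0.98, 1.01, 1.07 and 0.56 at day 1, a difference of 0.51 ± 0.35. Fasn, Scd1 and Srebf1 differed by 0.04 ± 0.37, 0.06 ± 0.35 and -0.15 ± 0.21. The other Fasn probe differed by 0.47, so the size of the Fasn difference depended on the probe. The groups did not overlap for 0 members and for 0.681% of features, and the members' median was 0.04, against 0.00 over all features. These controls also enter both TiO2 comparisons, so the values of the 3 comparisons are not independent.

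By the median, the members varied more between animals of one group than the named genes on the array. The median member had a within-group SD of 0.371 on the log2 scale, against 0.238 for the median of 11255 named genes. Slc25a1, Dgat2, Mogat1, Elovl1, Acacb, Acaca and Dgat1 lay below the latter, from 0.225 for Slc25a1 to 0.186 for Dgat1. The 24 members above background on every array had the same median, 0.371, against 0.246 for the 7201 named genes that were also above it on every array. The 2 sets were not matched for level, with median log2 ratios of 2.11 and 0.08. No test was made of the difference in SD. With scan day removed the medians were 0.252 for the members and 0.18 for all named genes. Differences between groups were larger in the same way: the median size of a difference at day 1 was 0.136 for the members and 0.0805 for all features, and at day 28 it was 0.114 and 0.0721.

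Lpin1 varied most, with an SD of 1.10 and values from 0.54 to 4.35. Its 2 other probes followed it with r of 0.99 each, so 3 probes carried the same spread. Agpat3 came next at 0.72, but its second probe ran against it (r = -0.49) and had an SD of 0.27. Elovl6 had 0.71, Fasn 0.60, Elovl3 0.58, Scd1 0.57 and Acly 0.52, and at the other end Dgat1, Acaca and Acacb had 0.19 each. Acacb was above background on 14 of 21 arrays, and the part of dim signal in its small spread was not tested. The carboxylase Acaca was measured by 3 probes, and the other 2 did not track the chosen one (r of 0.03 and -0.11), which was above background on 11 of 21 arrays. Other genes with several probes also disagreed, with r of -0.42 for the second Pnpla2 probe, -0.16 for that of Agpat2, 0.48 for that of Fasn and 0.52 for that of Acss2, whereas the second Elovl5 probe followed the first with r of 0.94.

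Scan day took up over 50% of the within-group variance in 13 of 32 members (40.6%), against 39.9% of all features. The largest shares were 85.4% for Elovl5, 82.6% for Scd2, 81.8% for Fads2, 80.5% for Agpat3 and 74.9% for Thrsp. Elovl5, an elongase of polyunsaturated fatty acids, had 1.89 to 2.82 in the 6 livers of scan day 1, 2.93 to 3.51 in the 8 of scan day 2 and 3.24 to 3.60 in the 7 of scan day 3. Its scan day 1 livers thus lay below all others, whatever their treatment. Scd2 ran the other way, from -4.76 to -3.93 on scan day 1, from -5.85 to -5.30 on scan day 2 and from -5.10 to -4.49 on scan day 3. Agpat3 averaged -0.27 on scan day 1 and 1.14 and 0.80 on the other days, and Elovl6 0.85 against 2.06 and 2.02. For Fasn, Acly, Srebf1, Scd1, Me1 and Pnpla3 the share was 34.7% or less. Liver probes above background moved with scan day too, and their part in these levels was not tested.

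**Figure D3:**
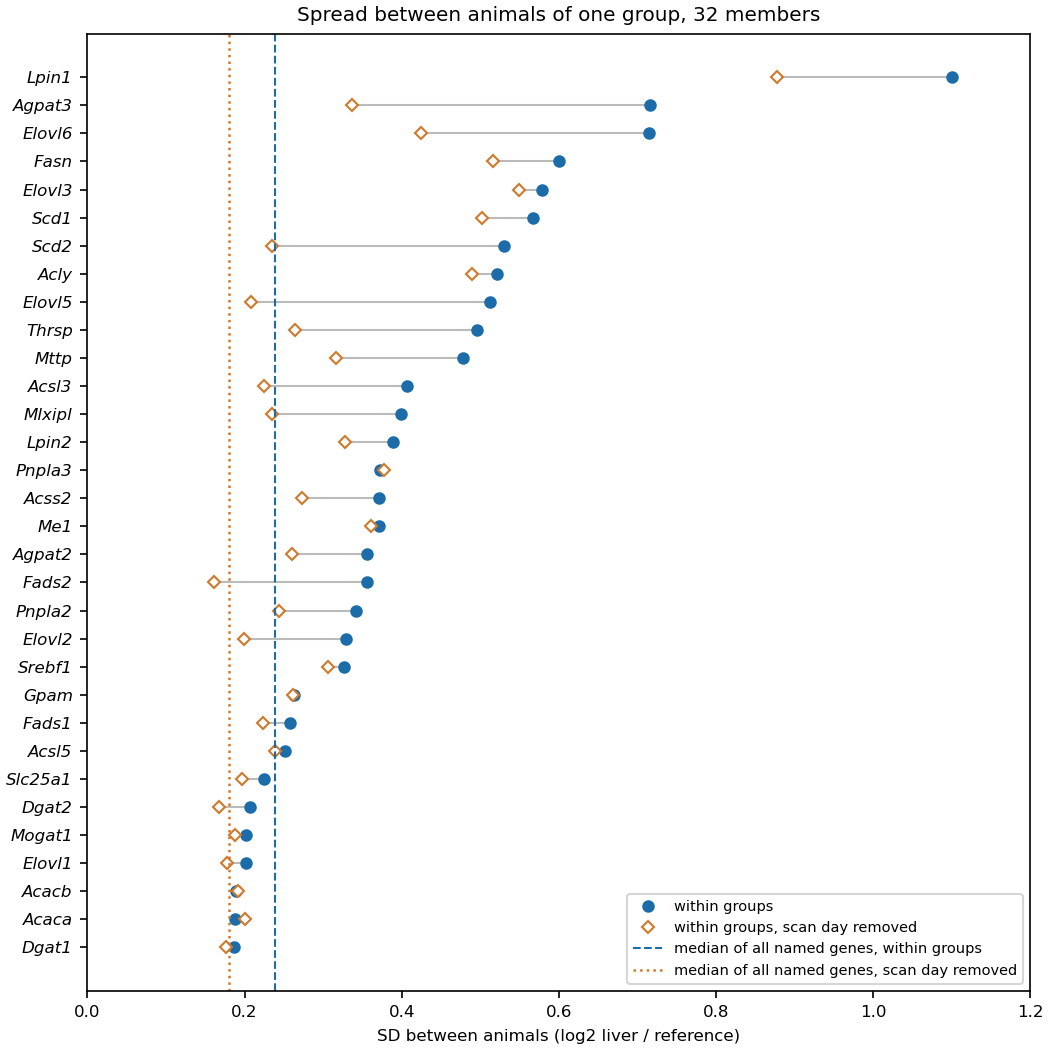
SD between animals of one group (horizontal axis, log2 scale) for each of the 32 members, as measured (filled) and with scan day removed (open); the vertical lines are the medians of all named genes on the same 2 measures. Lpin1 lies farthest right, and the open marks of Elovl5, Scd2, Fads2 and Agpat3 fall far to the left of the filled ones.

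Several lipogenic genes rose and fell together from animal to animal. Deviations of each liver from its group and scan-day level were compared between Fasn and 8 other members over the 21 animals, with permutation p values from 100000 reshuffles within scan days, adjusted over the 8 relations. Elovl6 (r = 0.75, rho = 0.65, adjusted permutation p = 0.0006 for r and 0.00704 for rho) and Srebf1 (r = 0.74, rho = 0.75, adjusted permutation p = 0.0006 and 0.0016) followed Fasn most closely. Pnpla3 (r = 0.73, rho = 0.56, adjusted permutation p = 0.0008 and 0.0241) and Acly (r = 0.69, rho = 0.58, adjusted permutation p = 0.00398 and 0.0258) did so as well. Scd1 (r = 0.52, rho = 0.47), Me1 (r = 0.53, rho = 0.41) and Thrsp (r = 0.46, rho = 0.36) passed by r, with adjusted permutation p of 0.0384, 0.0384 and 0.0499, but not by rho, with 0.0759, 0.127 and 0.139. Acaca did not (r = 0.07, adjusted permutation p = 0.794). Pnpla3 and Acaca were above background on only 9 and 11 of the 21 arrays, so their relations rest partly on values near background.

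The relations were read again without the 2 livers farthest from the median Fasn deviation, control day 28 replicate 2 and control day 1 replicate 4, both high. Then r was 0.71 for Srebf1, 0.60 for Elovl6, 0.56 for Acly, 0.55 for Pnpla3, 0.38 for Scd1, 0.36 for Me1 and 0.25 for Thrsp. Within scan days 1, 2 and 3 (6, 8 and 7 animals) r was 0.72, 0.71 and 0.86 for Srebf1, 0.68, 0.68 and 0.80 for Elovl6, 0.85, 0.79 and 0.66 for Pnpla3, and 0.37, 0.62 and 0.95 for Acly. Scd1 had 0.53, 0.65 and 0.47 and Thrsp 0.23, 0.55 and 0.73. Me1, at -0.08, 0.25 and 0.87, followed Fasn closely on scan day 3 only, and Acaca had -0.02, 0.48 and -0.04. With scan-day levels left in, Elovl6 (r = -0.07) and Thrsp (r = -0.19) no longer followed Fasn, and Srebf1 did (r = 0.78). The other Fasn probe, which had r of 0.48 with the chosen one, gave r of 0.83 with Acly, 0.71 with Me1, 0.69 with Elovl6, 0.64 with Pnpla3, 0.59 with Srebf1, 0.57 with Thrsp, -0.09 with Acaca and 0.22 with Scd1, whose relation thus depended on the probe.

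**Figure D4:**
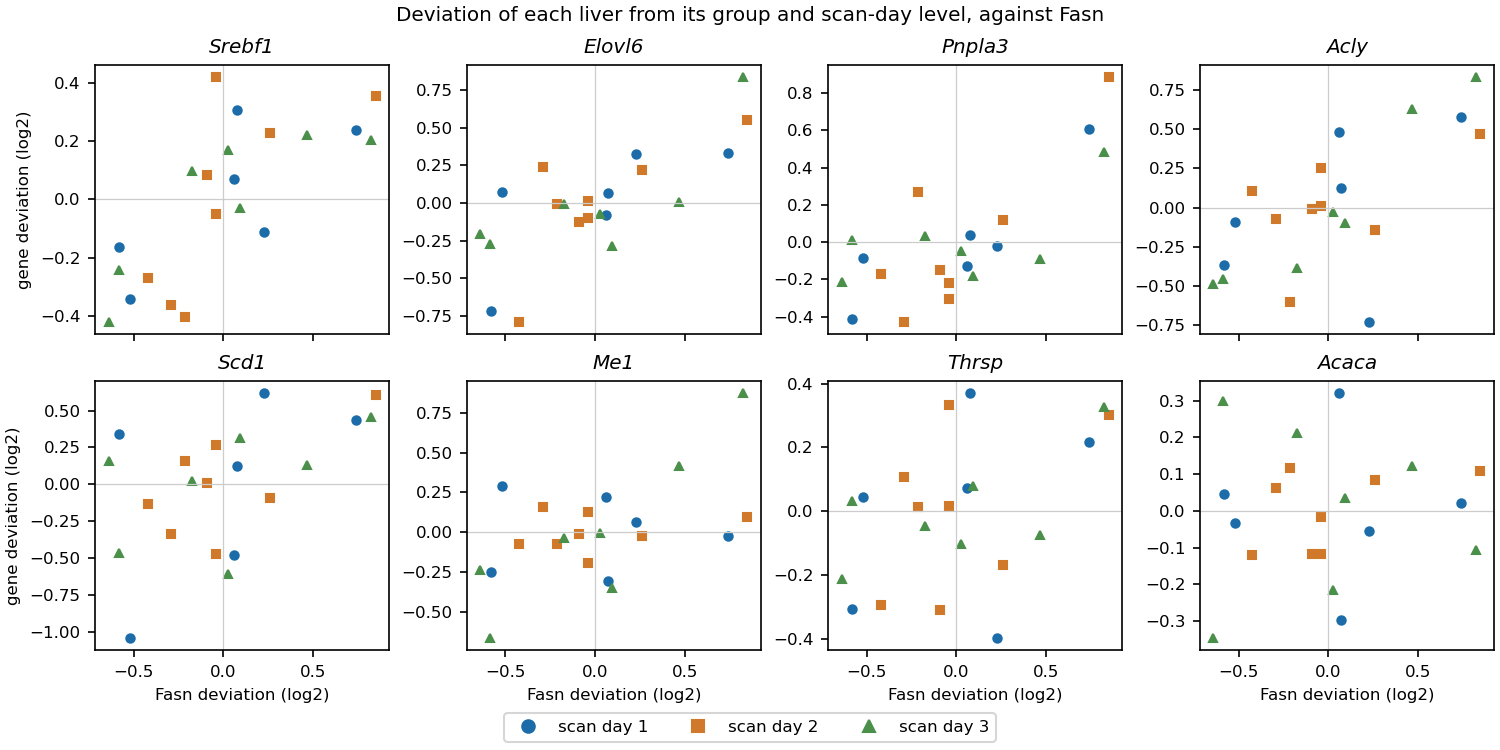
Deviation of each liver from its group and scan-day level for 8 members (vertical axes, log2) against that of Fasn (horizontal axis, log2); each point is 1 of the 21 livers, and shape and colour give the scan day. Srebf1, Elovl6, Pnpla3 and Acly rise with Fasn (r of 0.74, 0.75, 0.73 and 0.69), and Acaca does not (r = 0.07). Pnpla3 and Acaca were above background on 9 and 11 of the 21 arrays.

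Over the array, 38 of 17639 features (0.215%) had r of 0.7 or more with Fasn on the same deviations, and 3 of the other 31 members (9.68%) did. These members were Elovl6, Srebf1 and Pnpla3, the last above background on 9 of 21 arrays. The named genes nearest to Fasn were Azin1, the antizyme inhibitor (r = 0.80), Tkt, the transketolase of the pentose phosphate pathway (r = 0.80), and Thnsl2 (r = 0.79). At the other end of the members were Agpat3 (r = -0.48), Elovl3 (r = -0.28) and Mttp (r = -0.26). Among all 496 pairs of members the highest r was 0.85, between Acly and Acss2, both makers of cytosolic acetyl-CoA, followed by 0.79 between Elovl6 and Gpam. These are descriptions over the same 21 animals, which share arrays and scan days.

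The proximal promoters of Fasn and of the 3 members that moved with it and have 1 window in the table are shown, since the insulin response of Fasn is known to act through its proximal bases. The windows run from 250 bases before to 50 after the annotated start, from RefSeq on build GRCm38.p6, 5′ to 3′ on the gene's own strand, with CCAAT boxes on either strand in capitals (CCAAT, or ATTGG on the opposite strand).
Fasn, chr11:120824498-120824797, minus strand: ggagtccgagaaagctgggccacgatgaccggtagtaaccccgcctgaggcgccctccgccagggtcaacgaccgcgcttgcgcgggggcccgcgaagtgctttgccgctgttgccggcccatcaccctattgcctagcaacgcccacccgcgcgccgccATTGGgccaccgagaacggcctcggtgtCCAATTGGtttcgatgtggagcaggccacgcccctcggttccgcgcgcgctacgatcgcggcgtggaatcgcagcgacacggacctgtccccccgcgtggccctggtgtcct
Acly, chr11:100527951-100528250, minus strand: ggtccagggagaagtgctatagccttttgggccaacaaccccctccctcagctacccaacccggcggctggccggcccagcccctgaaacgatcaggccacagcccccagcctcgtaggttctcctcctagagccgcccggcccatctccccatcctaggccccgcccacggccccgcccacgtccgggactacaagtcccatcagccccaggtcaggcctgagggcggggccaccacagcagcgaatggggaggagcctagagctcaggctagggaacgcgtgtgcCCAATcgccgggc
Elovl6, chr3:129532136-129532435, plus strand: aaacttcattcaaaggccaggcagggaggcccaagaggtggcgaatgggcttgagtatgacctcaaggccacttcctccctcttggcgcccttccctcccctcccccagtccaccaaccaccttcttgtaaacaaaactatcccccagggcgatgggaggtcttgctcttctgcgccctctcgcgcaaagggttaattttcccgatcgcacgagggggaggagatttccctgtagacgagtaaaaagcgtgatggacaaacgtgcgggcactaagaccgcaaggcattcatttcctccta
Pnpla3, chr15:84167566-84167865, plus strand: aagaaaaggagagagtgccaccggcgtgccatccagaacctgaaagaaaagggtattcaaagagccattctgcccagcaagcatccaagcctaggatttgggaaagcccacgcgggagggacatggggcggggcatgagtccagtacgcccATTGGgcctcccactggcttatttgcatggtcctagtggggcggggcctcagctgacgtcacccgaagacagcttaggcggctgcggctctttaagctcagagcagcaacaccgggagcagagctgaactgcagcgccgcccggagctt

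The Fasn window held 3 CCAAT matches, with first bases at -90 and -59 on the opposite strand and at -62 on the gene's strand, the last 2 overlapping. The Pnpla3 window held 1, at -99 on the opposite strand, and the Acly window 1, at 38 past the start. The Elovl6 window held none. Windows were found for 26 members (35 windows). At least 1 CCAAT match was in 18 of these 35, against 37.4% of all 32851 windows in the table. The E-box CACGTG, which reads the same on both strands, was in 4 of the 35 (Elovl5, Mlxipl, Lpin2 and Slc25a1), against 7.15% of all, and the sterol regulatory element TCACNCCAC, on either strand, in 1 (Mlxipl), against 1.24%. A match describes the letters of the window and nothing more.

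Other genes of lipid metabolism were counted in 7 lists. Of 14 further regulators, 9 suppliers of carbon and NADPH, 12 partners of elongation and desaturation, 12 genes of glycerolipid assembly, 14 of lipid droplets and lipolysis, 11 of the fasting response and 8 of the clock that passed the filter, 0 were called in any of the 4 comparisons, with or without scan day as a block. At day 1 none of them had an unadjusted p under 0.05 without the block. With the block, 1 of the carbon suppliers and 2 of the fasting response did, against 4.08% of all features. Higher and lower means in TiO2 livers numbered 6 and 8 among the regulators, 3 and 6 among the carbon suppliers, 4 and 8 among the elongation partners, 6 and 6 in glycerolipid assembly, 3 and 11 in lipid droplets, 4 and 7 in the fasting response and 5 and 3 in the clock.

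The 2 genes with the smallest p of each list at day 1 differed as follows. Nr1h2, an oxysterol receptor (0.18 ± 0.10, unadjusted p = 0.0776), and Pparg, the adipogenic nuclear receptor (-0.21 ± 0.15, unadjusted p = 0.192), came first among the regulators. Tkt, the transketolase, differed by -0.22 ± 0.15, and Pklr, the liver pyruvate kinase and a known ChREBP target, by -0.23 ± 0.25. Hacd1, a dehydratase of the elongation cycle, and Cyb5r3, which passes electrons to the desaturases, differed by 0.16 ± 0.10 and -0.31 ± 0.25. Apob, the protein of very low density lipoprotein, and the acyltransferase Gpat4 differed by 0.28 ± 0.23 and 0.14 ± 0.17, and Abhd5, the activator of the lipase Pnpla2, and G0s2, its inhibitor, by -0.17 ± 0.16 and -0.35 ± 0.35. In the fasting list Cpt1a, the carnitine palmitoyltransferase that malonyl-CoA inhibits, differed by -0.25 ± 0.15 and Igfbp1, an insulin-repressed hepatic gene, by 0.56 ± 0.35. With scan day as a block Igfbp1 differed by 0.69, with an unadjusted p of 0.00286 and no call after adjustment. The clock genes Clock and Dbp differed by 0.17 ± 0.12 and -0.71 ± 0.54.

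At day 28 none of these genes had an unadjusted p under 0.05 either. Higher and lower means in TiO2 livers numbered 9 and 5 among the regulators, 6 and 3 among the carbon suppliers, 6 and 6 among the elongation partners, 6 and 6 in glycerolipid assembly, 7 and 7 in lipid droplets, 4 and 7 in the fasting response and 5 and 3 in the clock. Aacs, which makes acetoacetyl-CoA for lipid synthesis, came closest (0.77 ± 0.38, unadjusted p = 0.0581). Insig1, which retains SREBP in the endoplasmic reticulum, differed by 0.43 ± 0.24, and its relative Insig2 by 0.25 ± 0.25. Cs, the citrate synthase, differed by 0.10 ± 0.16, Scd3 by -0.19 ± 0.18 and Hacd3 by 0.12 ± 0.11. Acsl4, a synthetase that prefers arachidonate, differed by 0.21 ± 0.20 and Apob by 0.23 ± 0.24. The droplet proteins Cideb and Fitm1 differed by 0.29 ± 0.22 and -0.15 ± 0.13, the fatty acid oxidation genes Cpt1a and Cyp4a14 by -0.19 ± 0.16 and -0.24 ± 0.42, and the clock output genes Tef and Dbp by -0.45 ± 0.30 and -0.49 ± 0.58. All of these differences are TiO2 minus control on the log2 scale.

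For the change of the TiO2 difference between the days, the 2 smallest p values of each list were all above 0.05. With scan day as a block, 1 elongation partner and 1 fasting gene had an unadjusted p under 0.05, against 3.02% of all features. Aacs moved by 0.79 ± 0.53 and Tkt by 0.27 ± 0.22, Mid1ip1, which helps acetyl-CoA carboxylase polymerise, by 0.39 ± 0.30, and Scap, the escort of SREBP, by 0.27 ± 0.22. Hacd1, Hacd3, Gpat4 and Acsl4 moved by -0.24 ± 0.15, 0.22 ± 0.15, -0.24 ± 0.24 and 0.23 ± 0.27. Cideb and the monoglyceride lipase Mgll moved by 0.40 ± 0.30 and 0.28 ± 0.24, the fasting genes Cyp4a10 and Acot1 by 0.34 ± 0.29 and 0.56 ± 0.64, and the clock genes Nr1d1 and Per1 by 0.42 ± 0.46 and -0.33 ± 0.37.

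Between control livers of day 28 and day 1, 4 genes of these lists had an unadjusted p under 0.05, against 3.03% of all features, and 0 were called. With scan day as a block the lists, in the order in which they were first named, had 0, 1, 3, 1, 1, 3 and 2 such genes. The share of all features was then 7.72%, and again no listed gene was called. These counts are no result about the lists. G0s2 was lower at day 28 (-1.45 ± 0.39, unadjusted p = 0.00126), with 1.35 ± 0.14 in control livers of day 28 and 2.80 ± 0.68 in those of day 1 (SD, n = 4 and 5). Hacd2, a further dehydratase of the elongation cycle, was higher (0.42 ± 0.14, unadjusted p = 0.00645), and Lpgat1, a lysophospholipid acyltransferase (-0.58 ± 0.27, unadjusted p = 0.0442), and the clock gene Arntl (-0.64 ± 0.25, unadjusted p = 0.0174) were lower. Plin5, a droplet coat protein of oxidative tissues, differed by -0.54 ± 0.27, Tecr, the last enzyme of the elongation cycle, by -0.27 ± 0.17 and Acsl1 by 0.28 ± 0.18. Insig1 and Nr1h2 differed by -0.44 ± 0.25 and 0.18 ± 0.11, Taldo1 and Pdha1 by -0.27 ± 0.20 and -0.11 ± 0.09, and Cyp4a10 by -0.42 ± 0.22. G6pc, the glucose 6-phosphatase that fasting raises, differed by 0.55 ± 0.37, or 0.64 with scan day as a block (unadjusted p = 0.00124), and Per1 by 0.46 ± 0.28. The sources used here do not give the time of day at which the mice were killed.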

How the data were processed

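The deposited scanner files, written by Agilent Feature Extraction 10.7.3.1 per the file headers (9.5.3.1 in the submitters' processing notes), hold the median intensity of each spot and of its local background in both colours, and a log10 ratio of red over green that the scanner software background-subtracted and dye-normalized. The deposited table of processed values is on a log2 scale; its columns followed the unsubtracted log2 ratios of the same arrays with r of 0.9957 to 0.9971 and slopes close to 1, so its direction is liver over reference, and its medians were -0.058 to -0.011. The sources used here do not give how it was centred.

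Each array had 43379 probe spots and 1639 control spots. Of all spots on an array, 103 to 502 were marked as deviant and left out. With limma 3.58.1 in R 4.3.3, intensities were background-corrected by normexp (offset 50) and normalized by loess within arrays, and spots of a probe were averaged. A probe entered if its liver signal exceeded background on at least 50% of the arrays of 1 group. Probes were named through RefSeq (23374 of 41174 with 1 symbol, 17800 with none). The 4 group means were fitted over all 21 arrays with lmFit and eBayes, and p-values were adjusted by Benjamini-Hochberg over 17640 features at 0.05. The labels call the mice biological replicates. The number of arrays limits the precision. The procedure was tested for the day 1 comparison on simulated data, with independent noise and no scan-day effect. It recovered 85 of 100 changes of 1 on the log2 scale and 99 of 100 changes of 2, with 5 false calls. Smaller changes, of the size of the members' differences, were not simulated.

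Values were given for 12 members chosen by role and for the 5 with the smallest unadjusted p in each comparison, and for the 2 smallest of each other list. The rule for members goes by gene name and uses no value, but members and lists were chosen with earlier results of these data known. Alternatives covered background correction, normalization, the filter, scan day, slide, single animals, the probe of a gene and the samples in the fit. The series' design text speaks of more arrays than the 21 analysed here.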

Additional observations from a re-analysis of the deposited data

Results flagged for a closer look

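Of 128 sets of values (32 members in 4 groups), 11 had 1 animal apart from the rest of its group by Dixon's criterion, in 9 genes. Chance gives about 1 in 20. Scan day was not taken out of these values, and scan day took up 73.1% of the within-group variance of Acsl3 and 80.5% of that of Agpat3. All values are log2 ratios of liver over reference. Of the 11, 3 were the same TiO2 mouse of day 28, replicate 1: its Srebf1 was 1.93 with the next animal at 1.52, its Pnpla3 was 0.760 with the next at 0.170, and its Agpat3 was -0.713 with the next at 0.543. Among control livers of day 28, replicate 4 had Acaca at -0.0644 (next 0.204) and Dgat2 at 5.40 (next 5.13), and replicate 1 had Me1 at 0.472 (next 1.06). Among control livers of day 1, Pnpla3 was 0.677 in replicate 4 (next 0.260), Acaca 0.531 in replicate 5 (next 0.207), Elovl1 0.213 in replicate 3 (next -0.0627), Acsl3 -0.053 in replicate 1, the only animal of its group on scan day 1 (next 0.443), and Agpat2 1.78 in replicate 2 (next 2.49). Acaca and Pnpla3 were above background on 11 and 9 of the 21 arrays. As deviations from group and scan-day level, Acsl3 in that day 1 control was 0.110, the highest of its group, and Dgat2 in replicate 4 of the day 28 controls was 0.087, close to the next at 0.065.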

How the results depend on the processing

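Members called numbered 0 under every setting tried (27 at day 1, 26 at day 28, 36 for the change and 25 for the control groups), with members at an unadjusted p under 0.05 numbering 0 to 2 at day 1, 0 to 2 at day 28, 0 to 3 for the change and 0 to 4 for control livers of day 28 against day 1. Of 66 named differences, 40 were smaller than their standard error, and no direction was read from these. Of 702 alternative values of the other 26, 6 had the sign turned. With normexp fitted on all spots, marked ones included, Acsl5 at day 28 was 0.070, Acly in control livers of day 28 against day 1 was -0.19, and the members' median there was -0.19; 3 arrays then departed from their usual ratios, with r of 0.665 (replicate 4 of the controls of day 28), 0.879 and 0.888 (replicates 3 and 5 of TiO2 at day 28). Pnpla3 differed by 0.068 at day 28 without scan day 2 and by 0.0051 at day 1 without scan day 3, and Lpin1 by -0.48 between the control groups without scan day 2. Leaving out single animals, Pnpla3 at day 28 was -0.446 to 0.042, the highest without control day 28 replicate 2. Features called on the whole array at day 1 were 3 with slide as a random block and 0 to 3 leaving out single animals (3 without TiO2 day 1 replicate 2), and between the control groups 0 to 1 (1 without control day 1 replicate 4). The cause of these shifts was not tested. The correlation with Fasn over deviations from group means alone was 0.31 for Acly, -0.071 for Elovl6, -0.187 for Thrsp and 0.428 for Pnpla3. Within scan day 1 it was -0.0189 for Acaca and -0.0809 for Me1, within scan day 3 -0.0399 for Acaca, 0.954 for Acly and 0.871 for Me1, and with the other Fasn probe, chosen after seeing the data, -0.0931 for Acaca. No paired analysis was possible because replicates were numbered only in the order of their accessions, which pairs no animals. Signal over background limits the 8 members that were not above it on every array.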

Other observations

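Lpin1, the most variable member, was set against the tested genes of the clock and fasting lists, a comparison chosen after its spread had been seen. Over the 21 livers, as deviations from group and scan-day level, 6 of 19 relations passed after Benjamini-Hochberg adjustment of the permutation p for r. Per1 (r = 0.77, rho = 0.83, adjusted permutation p = 0.00152), Dbp (r = 0.74, rho = 0.58, adjusted permutation p = 0.00171), Nr1d2 (r = 0.73, rho = 0.71, adjusted permutation p = 0.00194) and Tef (r = 0.73, rho = 0.73, adjusted permutation p = 0.00194), all genes of the clock or its output, were high where Lpin1 was high. Pdk4, the pyruvate dehydrogenase kinase induced by fasting (r = -0.73, rho = -0.70, adjusted permutation p = 0.00194), and Arntl, which encodes BMAL1 (r = -0.64, rho = -0.68, adjusted permutation p = 0.00374), were low there. Without the 2 livers farthest from the median Lpin1 deviation, r was 0.76 for Per1, 0.60 for Dbp, 0.57 for Nr1d2, 0.61 for Tef, -0.69 for Pdk4 and -0.46 for Arntl. Within scan days 1, 2 and 3 it was 0.83, 0.81 and 0.73 for Per1, 0.71, 0.84 and 0.73 for Dbp, 0.81, 0.75 and 0.75 for Nr1d2, 0.91, 0.75 and 0.55 for Tef, -0.70, -0.72 and -0.74 for Pdk4, and -0.65, -0.85 and -0.46 for Arntl. The other 13 genes, among them Cpt1a (r = -0.09) and Nr1d1 (r = 0.37), did not pass by r. The fasting genes ran in both directions, with Angptl4 (r = 0.46), Igfbp1 (r = 0.37) and G6pc (r = 0.37) positive and all others of that list negative. By rho the same 6 passed, and Fgf21, a hepatokine raised by fasting, passed as well (r = -0.49, rho = -0.59, adjusted permutation p = 0.0755 for r and 0.0234 for rho). Over the array, 78 of 17639 features (0.442%) had an absolute r of 0.7 or more with Lpin1, and 5 of the 19 listed genes (26.3%) did. Among the other members, r with Lpin1 on the same deviations ran from -0.34 for Agpat3 to 0.69 for Gpam, with 0.65 for both Me1 and Fasn. These are descriptions of the same 21 livers.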
